A study of Coregonus lavaretus with 13 samples.

Results

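Livers of juvenile whitefish taken 6 days after an injection of microcystin-LR (MC-LR) were compared directly with livers taken 1 day after it, over the 679 contigs whose identifiers stood in both the day 1 and the day 6 table of putative long non-coding RNAs (lncRNAs). The 3 tables together held 4729 contigs. The shared contigs made up 61.7% of the 1100 contigs of the day 1 table and 17.6% of the 3866 contigs of the day 6 table, and 457 of them were also listed for day 9.

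Fish of day 1 and of day 6 were whitefish (Coregonus lavaretus) of the Rutki-strain and had received the same single intraperitoneal dose, 100 μg MC-LR for each kg of fish in phosphate-buffered saline (PBS). Each group held 3 fish, and each fish was a separate animal and 1 liver library. The reference level for every contig came from 4 fish injected with PBS alone and sampled on day 1. PBS fish of day 6 were not analysed here and groups were kept in separate tanks, so time since injection, tank and sampling day cannot be told apart. Fish of day 9 had received the toxin again before sampling and are set beside the others only as values.

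MC-LR is a cyclic peptide made by cyanobacteria. It is taken up by hepatocytes through organic anion transporters and inhibits serine/threonine protein phosphatases, and liver injury is the effect for which it is best known. LncRNAs are transcripts without a recognised coding sequence, and members of this class are known to act on chromatin, on transcription and on the stability of other RNAs. The contigs carry no gene name, sequence or genome position in the data used here, so no function can be given to a contig and the liver label could not be checked against marker genes. In a piece of liver, fewer cells of a type and less RNA per cell cannot be told apart.

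A contig entered both tables only if it had differed from PBS on day 1 and on day 6, at an adjusted p under 0.001 in the same fish. Contigs that had changed on day 1 and stood at the PBS level on day 6 are therefore not among the 679, and neither are those that changed on day 6 alone. Measured against the PBS mean, 196 contigs were higher on both days (raised contigs), 482 were lower on both days (lowered contigs) and 1 was higher on day 1 and lower on day 6. These classes follow from the listing and are a description. What the listing did not use is the direct difference between the exposed fish of both days. For the 1 contig on opposite sides of PBS, the sign of this difference follows from the listing.

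Reads on the 679 contigs numbered 96517 to 109553 in the PBS fish, 110078 to 189640 in the exposed fish of day 1 and 229185 to 502430 in those of day 6, which is only part of each library. Counts were divided by size factors and brought to a common scale through the PBS fish, which stand in both tables, and are given as normalized counts. They are not divided by length, so levels are compared between fish and not between contigs. The size factors were 0.964, 1.19 and 0.829 for the fish of day 1 and 1.30, 1.18 and 1.21 for those of day 6. Replicate 3 of day 1 stood apart from the other fish of its day. It was the highest of the 3 in 120 of 196 raised contigs (61.2%) and the lowest in 185 of the 335 lowered contigs that had enough reads to be fitted (55.2%).

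With at least 10 reads over the 6 exposed fish, 532 contigs were fitted with edgeR's quasi-likelihood test, and 147 were not, all of them lowered contigs. At an adjusted p under 0.05, 35 contigs (6.58% of those fitted) were higher on day 6 than on day 1 and 134 (25.2%) were lower, 169 in all (31.8%). The groups of 3 fish did not overlap in 59 contigs that were higher (11.1%) and 153 that were lower (28.8%), together 212 (39.8%). An unadjusted p under 0.05 was reached by 236 contigs (44.4%). Under the thresholds of the study, an adjusted p under 0.001 and a log2 difference beyond 2, 15 contigs were higher (2.82%) and 34 lower (6.39%), 49 in all (9.21%).

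The raised contigs moved in both directions between day 1 and day 6. Of the 196, all of them fitted, 34 were higher on day 6 (17.3%, against 6.58% of all contigs fitted) and 29 were lower (14.8%, against 25.2%). Their median level was 6.72 normalized counts in PBS livers, 153 on day 1 and 158 on day 6, and the median log2 difference was 0.15, with the middle 50% of contigs between -1.14 and 1.11. Almost all lowered contigs that were called were lower on day 6. Of the 335 fitted, 104 were lower on day 6 (31.0%, against 25.2% of all contigs fitted) and 1 was higher (0.299%, against 6.58%), and the median log2 difference was -1.57, against -0.83 over all contigs fitted. The median level of all 482 lowered contigs was 89.2 normalized counts in PBS livers, 4.45 on day 1 and 1.38 on day 6. Of the 104 contigs called lower, 69 reached the minimum of 10 reads through the fish of day 1 alone. Among the 149 lowered contigs with at least 10 reads on each day, 35 were lower and 1 was higher. Their median log2 difference was -0.83. The set of all contigs fitted, with 25.2% lower and a median of -0.83, includes 133 lowered contigs with 10 reads on day 1 alone. It is therefore not a like basis for these 149, nor for the shares of the raised contigs. The 196 raised contigs all had at least 10 reads on each day, with 34 higher, 29 lower and a median of 0.15.

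**Figure D1:**
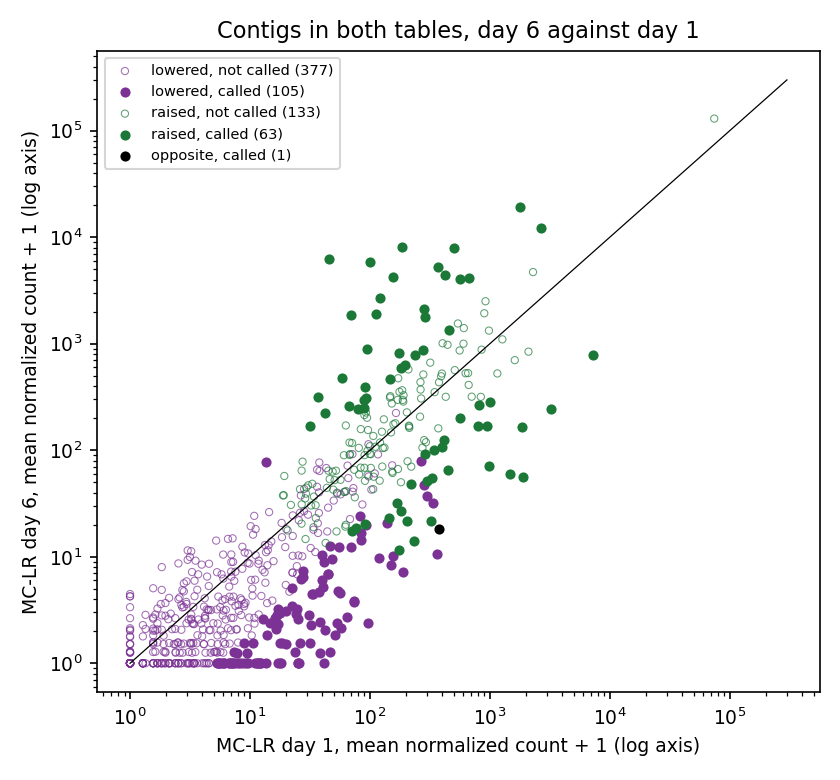
Mean normalized count of each contig over the 3 exposed fish of day 1 (horizontal axis) and the 3 of day 6 (vertical axis), both on log scales, each with 1 added, with colour for the class and filled points for contigs called. Raised contigs spread to both sides of the line of equal levels, with 34 called above it and 29 below, while 104 of the 105 called lowered contigs lie below it. Of these 104, 69 were fitted through their reads of day 1 alone and had to lie below the line.

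How these counts divide depended on the scaling. With the libraries scaled by their clean reads, all 532 log2 differences rose, by 0.13 to 0.60 with a median rise of 0.46, the median over all contigs fitted was -0.37, and the calls were 51 higher and 81 lower, so that 38.6% of calls were higher in place of 20.7%. The corresponding shares were 34.2% with TMM and 32.5% with the median of ratios, where the differences rose by 0.12 to 0.47 and by 0.01 to 0.42. The gap between the median raised and the median lowered contig, which a common scaling hardly touches, was 1.72 on the log2 scale as reported and 1.78 with clean reads. It was 1.15 without replicate 2 of day 1 and 2.29 without replicate 3 of day 1. The gap also includes lowered contigs fitted through day 1 alone. With at least 10 reads on each day, the median was -0.83 for lowered and 0.15 for raised contigs.

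Fish by fish, the raised contigs lay at a median log2 ratio to the PBS mean (with 1 added to each normalized count) of 3.45, 3.71 and 4.30 on day 1 and of 4.14, 4.35 and 4.20 on day 6. The lowered contigs lay at -4.18, -3.61 and -4.84 on day 1 and at -5.02, -5.16 and -5.11 on day 6. On this scale the groups of raised contigs overlapped, with replicate 3 of day 1 above replicates 1 and 3 of day 6, and those of lowered contigs did not. Both statements turned with the scaling. Scaled by clean reads, the raised contigs lay at 2.92, 3.64 and 4.06 on day 1 and at 4.43, 4.43 and 4.33 on day 6, without overlap. The lowered contigs then lay at -4.56, -3.74 and -5.09 on day 1, and replicate 1 of day 6, at -5.02, was above the lowest of these. The fish of day 6 were also nearer to each other, with 4.23 ± 0.11 against 3.82 ± 0.43 for raised and -5.10 ± 0.07 against -4.21 ± 0.62 for lowered contigs (SD, n = 3 each). For lowered contigs the median levels on day 6 were 1.54, 0.849 and 0.826 normalized counts, where the 1 added narrows the range. Their sums, without 1 added, were 8440 ± 2086 on day 1 and 3321 ± 492 on day 6.

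**Figure D2:**
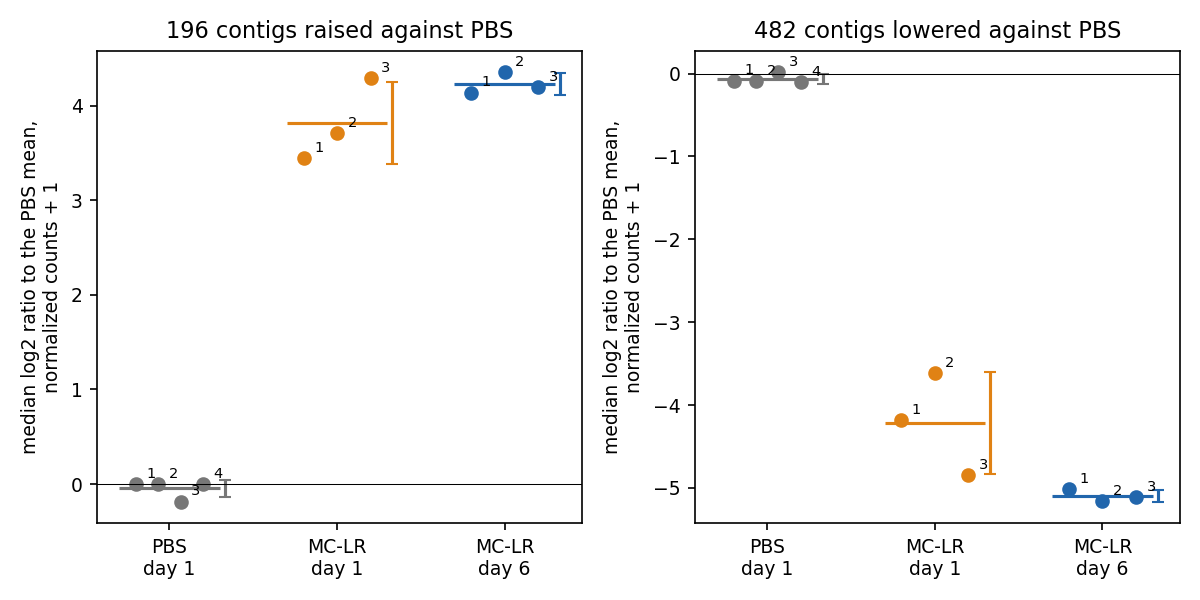
Median log2 ratio to the PBS mean over the raised and over the lowered contigs, 1 numbered point per fish, for PBS, day 1 and day 6, with a bar at the group mean and whiskers of 1 SD. The 3 fish of day 6 lie within 4.14 to 4.35 for raised and -5.16 to -5.02 for lowered contigs, a narrower range than the 3 fish of day 1. The 1 added to each count narrows the range where counts are low, as in the lowered contigs of day 6.

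Summed over the raised contigs, a liver held 8232 ± 310 normalized counts in PBS fish (SD, n = 4), 106043, 102273 and 221950 in the fish of day 1 and 219944, 191752 and 411573 in those of day 6. The groups overlapped, with replicate 3 of day 1 above replicates 1 and 2 of day 6, and the mean of day 6 was 1.91 times that of day 1. Scaled by clean reads the ratio was 2.66 and the groups did not overlap. A large part of each sum was the single contig TRINITY_DN78778_c0_g1_i16, which made up between 15.2% and 66.6% of it in the exposed fish. Without this contig the sums were 69080 ± 8169 on day 1 and 144332 ± 20775 on day 6 (SD, n = 3 each), a ratio of 2.09. Of these sums in the fish of day 6, 121722, 162578 and 148698, the 34 contigs called higher held 81785, 115790 and 106247. The ratio is thus not that of a typical raised contig, for which the median log2 difference was 0.15. Summed over the lowered contigs, PBS livers held 89937 ± 5886 normalized counts. The fish of day 1 held 7776, 10778 and 6768 and the fish of day 6 held 3854, 2886 and 3221, so the remaining level was 9.38% of PBS on day 1 and 3.69% on day 6, without overlap. The mean of day 1 was 2.54 times that of day 6. Scaled by clean reads this ratio was smaller, 1.84, and the groups again did not overlap.

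The contigs that were raised on day 1 and higher still on day 6 numbered 34, from 33 Trinity genes (groups of contigs that the assembler assigned to the same gene). Their median level went from 15.3 normalized counts in PBS livers to 150 on day 1 and 1125 on day 6, and the log2 differences between the days ranged from 1.49 to 7.15 with a median of 2.63. Summed, they held 8130, 6976 and 17160 normalized counts in the fish of day 1 and 81785, 115790 and 106247 in those of day 6, against 1254 to 1720 in PBS fish. In all 34 contigs the 3 fish of day 6 exceeded the 3 fish of day 1, against 11.1% of all contigs fitted. This follows largely from their being called. The nearest of the day 1 fish was replicate 3 in 28 of the 34. Without this fish 58 raised contigs were called higher, and without replicate 1 of day 1 the count was 21.

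TRINITY_DN111751_c3_g4_i1 stood at 9.76, 14.3, 6.86 and 27.0 normalized counts in the PBS fish, at 75.7, 87.2 and 134 on day 1 and, on day 6, at 4709, 7798 and 5098. The level on day 1 was already above every PBS fish, and the mean rose a further 59.3-fold by day 6 (log2 difference 5.89, SE 0.72, adjusted p = 3.52e-06 in edgeR). TRINITY_DN92637_c2_g3_i1 had no read in 3 PBS fish and 3.60 normalized counts in the other, 23.9, 10.1 and 100.2 on day 1, and 2655, 8482 and 7582 on day 6. Both days stood above PBS without overlap, and the rise from day 1 to day 6, 139.6-fold in means, was the steepest of the contigs called (log2 difference 7.15, SE 0.90, adjusted p = 3.52e-06). The size of this rise rests on replicate 3 of day 1, without which the log2 difference was 8.53.

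TRINITY_DN93812_c1_g1_i1 had 45.6, 62.1 and 96.6 normalized counts on day 1 and 1977, 1849 and 1765 on day 6, against 16.6, 10.7, 7.84 and 9.89 in PBS fish. The fish of day 6 were close to each other and 27.4 times as high in the mean as those of day 1 (log2 difference 4.78, SE 0.64, adjusted p = 8.55e-06). TRINITY_DN87265_c4_g1_i1 had 22.5, 17.9, 3.92 and 14.4 in PBS fish, 138, 48.6 and 275 on day 1 and 3902, 4826 and 4005 on day 6. Replicate 3 was the highest of the day 1 fish and still lay far below day 6 (log2 difference 4.79, SE 0.72, adjusted p = 1.83e-05). TRINITY_DN114726_c8_g1_i2 had 121, 395 and 38.6 on day 1 and 5211, 10148 and 8686 on day 6, against 13.7, 24.2, 7.84 and 19.8 in PBS fish. Here replicate 3 was the lowest fish of day 1, and the mean was 43.3 times as high on day 6 (log2 difference 5.43, SE 0.82, adjusted p = 1.98e-05). Leaving out replicate 2 of day 1 gave a log2 difference of 6.64, and for TRINITY_DN87265_c4_g1_i1 leaving out replicate 3 gave 5.51.

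A further 29 raised contigs were lower on day 6 than on day 1. That they were still above PBS follows from the listing and the class. Their median level was 0.938 normalized counts in PBS livers, 339 on day 1 and 58.7 on day 6, with log2 differences from -5.12 to -1.47 and a median of -2.56. In 15 of them the PBS mean was under 1 normalized count. Summed, they held 35561, 23915 and 16240 in the fish of day 1, 2688, 4756 and 2448 in those of day 6 and 197 to 429 in PBS fish. The fish of both days did not overlap in 25 of the 29, which follows largely from their being called. Over all contigs fitted, 28.8% were lower without overlap. Replicate 3 of day 1 was the nearest to day 6 in 23 of the 29, and without it 39 raised contigs were called lower. Without replicate 1 or replicate 3 of day 6 the count was 19 or 18, and with clean reads as the scaling it was 18.

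TRINITY_DN93767_c4_g1_i2 had 2197, 1070 and 1171 normalized counts on day 1 and 74.6, 61.2 and 40.5 on day 6, against 8.79, 3.58, 11.8 and 6.29 in PBS fish. The level on day 6 was 25.2 times lower than on day 1 and remained above every PBS fish (log2 difference -4.65, SE 0.64, adjusted p = 1.03e-05). TRINITY_DN84186_c2_g2_i3 had 1956, 2594 and 1155 on day 1 and, on day 6, 13.1, 106 and 44.6, with 0, 0, 0.980 and 3.60 in PBS fish. Its mean was 34.8 times lower on day 6 although the fish of that day were spread widely (log2 difference -5.12, SE 0.74, adjusted p = 1.27e-05), and the difference was -6.04 without replicate 2 of day 6.

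TRINITY_DN91051_c3_g1_i1 had no read in 3 PBS fish and 0.899 in the other, 1436, 966 and 564 on day 1 and, on day 6, 69.2, 97.7 and 45.4. The groups did not overlap, and the level on day 6 was 14.0 times lower (log2 difference -3.80, SE 0.62, adjusted p = 5.14e-05). No read of TRINITY_DN87206_c5_g1_i2 was counted in any PBS fish, with 192, 239 and 91.7 normalized counts on day 1 and, on day 6, 7.69, 8.49 and 15.7. The mean was 16.4 times lower on day 6 (log2 difference -4.03, SE 0.67, adjusted p = 6.45e-05). TRINITY_DN104525_c1_g1_i1 also had no read in PBS fish, and stood at 175, 367 and 152 on day 1 and at 13.8, 23.8 and 1.65 on day 6. Replicate 3 of day 6 was near the PBS level, and the mean was 17.7 times lower than on day 1 (log2 difference -4.14, SE 0.72, adjusted p = 9.21e-05). Without replicate 2 of day 6 the difference was -4.87.

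**Figure D3:**
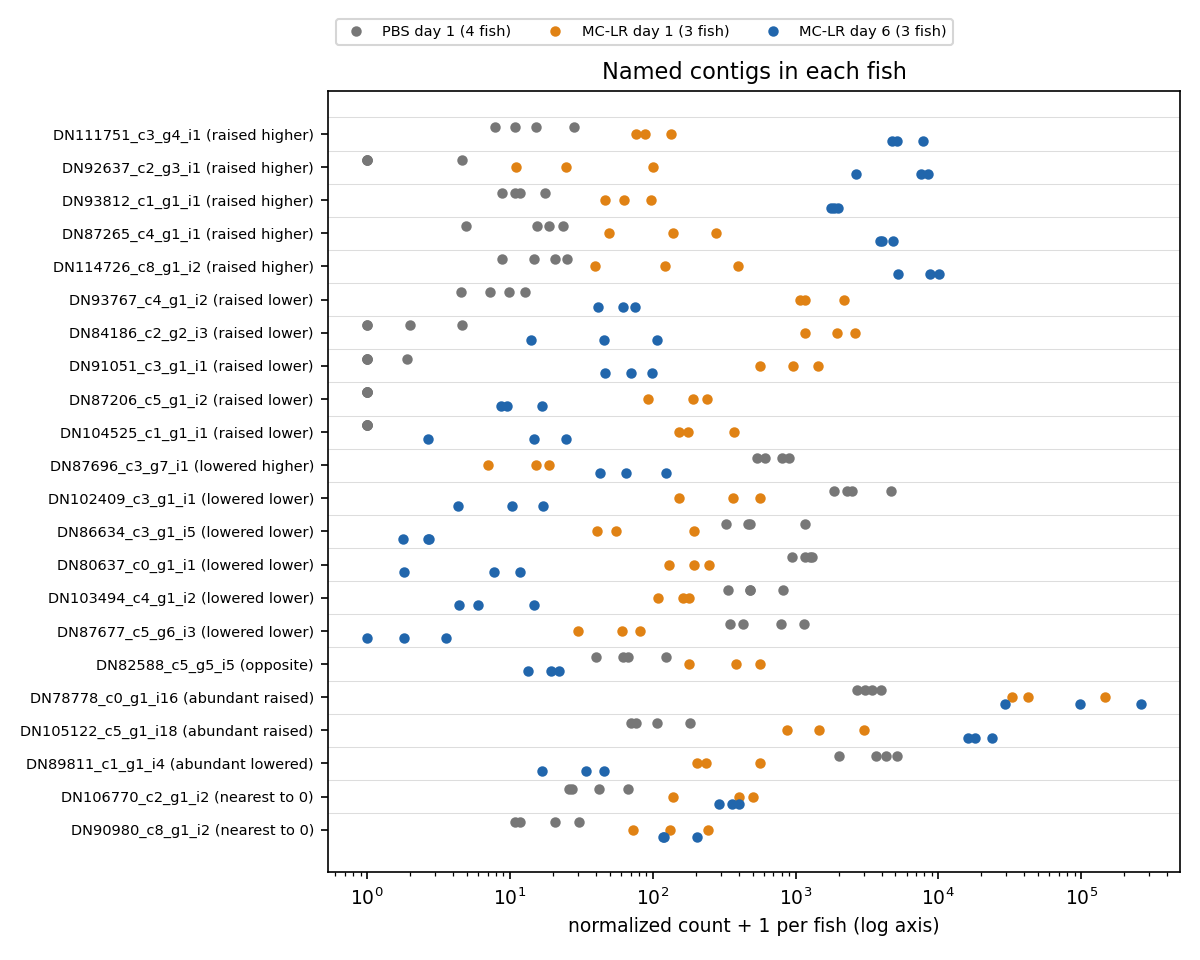
Normalized counts (with 1 added, log axis) of the 22 named contigs, 1 row per contig and 1 point per fish, for PBS (grey), day 1 (orange) and day 6 (blue). In the 5 rows of raised contigs that were higher on day 6 the blue points lie to the right of the orange ones, and in the 5 rows of raised and the 5 of lowered contigs that were lower they lie to the left.

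The lowered contigs called lower on day 6 numbered 104, from 99 Trinity genes. Their median level was 258 normalized counts in PBS livers, 23.8 on day 1 and 1.37 on day 6. Relative to PBS, the median contig was at 8.91% on day 1 and 0.484% on day 6. These medians include the 69 contigs fitted through their reads of day 1 alone, which had to be lower on day 6. The other 35, with at least 10 reads on each day, had medians of 15.4% and 1.69% of PBS and a median log2 difference of -2.85. Over all 104, log2 differences between the days ranged from -8.51 to -1.74 with a median of -4.48. Summed, they held 39094 to 50791 normalized counts in PBS fish, 4853, 6252 and 3480 in the fish of day 1 and 535, 506 and 437 in those of day 6. These sums did not overlap, which follows largely from the contigs being called lower in the same fish. Single contigs did not overlap in 88 of 104, against 28.8% of all contigs fitted, which again follows largely from their being called. Replicate 3 of day 1 was the nearest to day 6 in 71 of the 104. The count was 62 with clean reads as the scaling, 63 without replicate 1 or without replicate 3 of day 6, and 67 without replicate 2 of day 1.

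TRINITY_DN102409_c3_g1_i1, the lowered contig with the second highest mean in PBS fish, had 4682, 1844, 2281 and 2469 normalized counts there, 366, 565 and 151 on day 1 and, on day 6, 16.1, 9.34 and 3.30. The level fell stepwise without overlap, and the second step was 37.6-fold (log2 difference -5.21, SE 0.73, adjusted p = 1.03e-05). TRINITY_DN86634_c3_g1_i5 had 326, 462, 478 and 1171 in PBS fish, 53.9, 193 and 39.8 on day 1 and 0.769, 1.70 and 1.65 on day 6, which rests on few reads. It reached the minimum of 10 reads through day 1 alone, with 315 reads there and 5 on day 6. Such a contig had to be lower on day 6, so its test values are a description. The level on day 6 was 69.6 times lower than on day 1 (log2 difference -6.04, SE 0.88, adjusted p = 1.03e-05), and the difference was -5.00 without replicate 2 of day 1. For TRINITY_DN102409_c3_g1_i1 it was -5.81 without replicate 1 of day 6.

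TRINITY_DN80637_c0_g1_i1 had 1313, 1270, 1163 and 944 normalized counts in PBS fish, 245, 193 and 129 on day 1 and 10.8, 6.79 and 0.826 on day 6. In each group replicate 3 or the last PBS fish was the lowest, and the groups were far apart (log2 difference -4.91, SE 0.74, adjusted p = 1.83e-05). TRINITY_DN103494_c4_g1_i2 had 481, 336, 480 and 822 in PBS fish, 177, 162 and 109 on day 1 and 13.8, 3.40 and 4.95 on day 6. Its fall by day 1 was modest and its level on day 6 was 20.2 times lower than on day 1 (log2 difference -4.30, SE 0.70, adjusted p = 4.86e-05). TRINITY_DN87677_c5_g6_i3 had 793, 344, 1144 and 429 in PBS fish, 29.0, 60.4 and 80.9 on day 1 and 0, 2.55 and 0.826 on day 6. Replicate 3 was here the highest fish of day 1. This contig passed the minimum of reads through day 1 alone, with 167 reads there and 4 on day 6. It had to be lower on day 6, so its test values are a description. The difference between days was -5.56 on the log2 scale (SE 0.96, adjusted p = 7.3e-05 in edgeR), or -6.79 without replicate 2 of day 6. Without replicate 1 of day 6 the differences were -5.60 for TRINITY_DN80637_c0_g1_i1 and -5.12 for TRINITY_DN103494_c4_g1_i2.

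**Figure D4:**
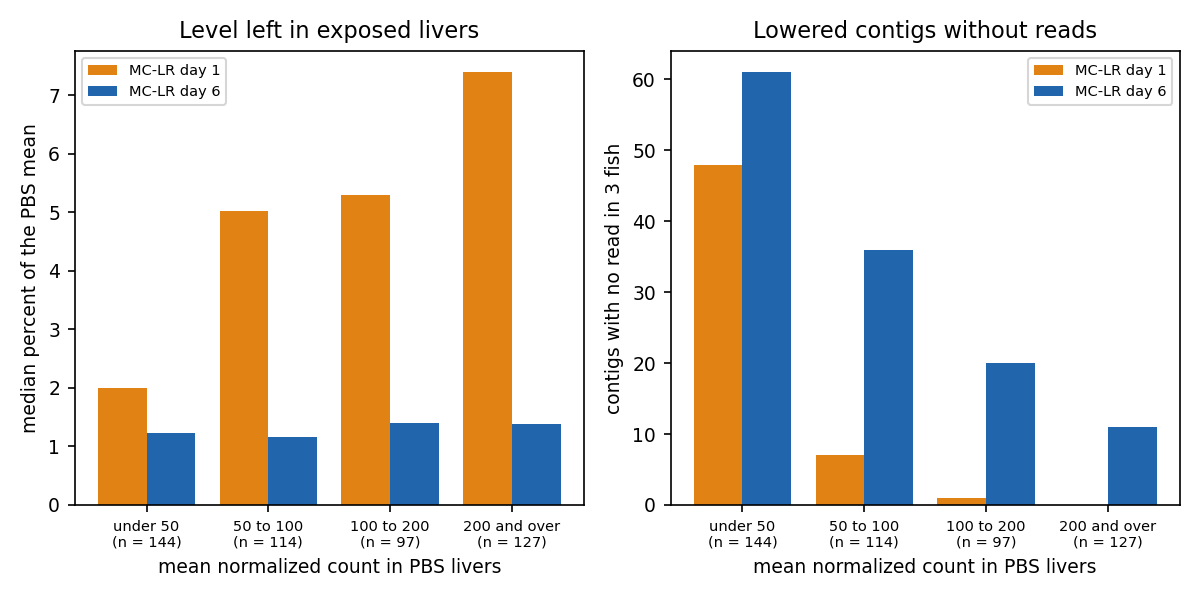
Median level of the lowered contigs as a percentage of the PBS mean (left bars) and number of contigs with no read in the 3 fish (right bars) on day 1 and day 6, by mean normalized count in PBS fish. These medians over all contigs of a class went from 7.39% to 1.38% in the class of at least 200 normalized counts and from 2.01% to 1.23% in the class under 50, where the fitted contigs alone had a median log2 difference of 0.16.

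Calls were unevenly spread over the levels that the lowered contigs had in PBS fish. Of the 127 lowered contigs with a PBS mean of at least 200 normalized counts, 124 were fitted, 63 were lower and 1 was higher on day 6, and the median level went from 7.39% of PBS on day 1 to 1.38% on day 6. Of the 144 contigs with a PBS mean under 50, 44 were fitted and 2 were lower, and the medians were 2.01% and 1.23%. In that class 48 contigs had no read on day 1 and 61 had none on day 6, so a further fall was not detectable at this depth in many of them. Between these classes, 14 of the 82 fitted contigs with a PBS mean of 50 to 100 and 25 of the 85 with 100 to 200 were lower. From the lowest to the highest class, 4.55%, 17.1%, 29.4% and 50.8% of the contigs fitted were lower, against 25.2% of all contigs fitted. The median log2 difference of the fitted contigs was 0.16 in the class under 50, above 0, and -2.28 in the class of at least 200. Of the 104 contigs called lower over these classes, 69 had reached 10 reads through day 1 alone and had to be lower. They were not separated by PBS level, so the shares and medians by class are a description.

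No read was counted in any exposed fish of day 6 for 128 of the 482 lowered contigs, against 56 on day 1, and 38 had no read on either day. Per fish, 131, 82 and 244 lowered contigs were without a read on day 1 and 203, 237 and 219 on day 6. Replicate 3 of day 1, with the smallest size factor, was the fish with the most such contigs. Of the 90 contigs with reads on day 1 and none on day 6, 40 were fitted and 32 called lower. These had reached the minimum of 10 reads through day 1 alone, so their calls and bounds are a description of contigs that could only be fitted if they were higher on day 1. Taking 3 reads over the group as the limit that a count of 0 allows, these 32 were at least 5.26-fold to at least 49.8-fold lower on day 6, with a median of 9.85, and such limits cover counting error only. The reverse, no read on day 1 and reads on day 6, was found for 18 contigs. Only 3 of these had enough reads to be fitted, and none was called by edgeR. The calls cannot therefore be compared between the directions.

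The largest of these bounds, picked out after the values were seen, belonged to TRINITY_DN83228_c13_g1_i1. It had 558 ± 89.4 normalized counts in PBS fish (SD, n = 4), 36.3, 56.2 and 29.0 on day 1 and no read on day 6. It was at least 49.8-fold lower on day 6 (adjusted p = 7.91e-05 in edgeR). This contig passed the minimum of reads through day 1 alone, with 126 reads there. It had to be lower on day 6, so its bound and test values are a description.

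A single lowered contig was called higher on day 6. TRINITY_DN87696_c3_g7_i1 had 609, 798, 904 and 536 normalized counts in PBS fish, 17.6, 14.3 and 6.04 on day 1 and, on day 6, 41.5, 122 and 64.4. All fish of day 6 lay above all fish of day 1 and far below PBS, with 10.7% of the PBS mean remaining on day 6 after 1.78% on day 1. The log2 difference was 2.56 (SE 0.69, adjusted p = 0.00559). Without replicate 2 of day 6 it was 2.03 and the adjusted p was 0.0558.

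TRINITY_DN82588_c5_g5_i5 was the only shared contig on opposite sides of PBS on the 2 days. It stood at 66.4, 123, 39.2 and 61.1 normalized counts in PBS fish, at 380, 563 and 177 on day 1 and at 18.5, 21.2 and 12.4 on day 6. Every fish of day 1 was above, and every fish of day 6 below, all 4 PBS fish. From day 1 to day 6 it was 21.5 times lower (log2 difference -4.42, SE 0.66, adjusted p = 1.83e-05). Being above PBS on day 1 and below it on day 6, it had to be lower on day 6, so its test values are a description.

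The contigs with the highest counts did not move alike. TRINITY_DN78778_c0_g1_i16 had 3070, 3444, 3966 and 2686 normalized counts in PBS fish, 32645, 42614 and 147767 on day 1 and 98222, 29174 and 262875 on day 6. Both exposed groups were above PBS and overlapped widely with each other, with a log2 difference of 0.81 (SE 0.92, adjusted p = 0.539 in edgeR) that was -0.22 without replicate 3 of day 6 and 1.79 without replicate 3 of day 1. TRINITY_DN105122_c5_g1_i18 had 75.2, 69.8, 106 and 182 in PBS fish, 1456, 874 and 3009 on day 1 and 16146, 23831 and 17989 on day 6. It was already high on day 1 and 10.9 times higher on day 6, without overlap (log2 difference 3.44, SE 0.74, adjusted p = 0.000785), with a difference of 4.05 without replicate 3 of day 1. Among lowered contigs, TRINITY_DN89811_c1_g1_i4 had the highest mean in PBS fish, with 2022, 3665, 4274 and 5113, and fell to 234, 563 and 204 on day 1 and, on day 6, 44.6, 33.1 and 15.7. The second fall was 10.7-fold (log2 difference -3.42, SE 0.64, adjusted p = 0.00019), and without replicate 2 of day 1 the difference was -2.81.

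Many raised contigs stood at similar levels on both days: 88 of the 196 had a log2 difference within 1 in either direction. Those nearest to 0 among the well-read contigs were TRINITY_DN106770_c2_g1_i2 and TRINITY_DN90980_c8_g1_i2. The former had 137, 400 and 500 normalized counts on day 1 and 290, 358 and 402 on day 6, against 26.4, 25.0, 41.2 and 65.6 in PBS fish. The latter had 71.6, 132 and 244 on day 1 and 202, 116 and 120 on day 6, against 9.76, 29.5, 10.8 and 19.8. In both, replicate 1 was the lowest and replicate 3 the highest fish of day 1, and the groups overlapped. Log2 differences were 0.02 (SE 0.56, adjusted p = 0.978) and -0.02 (SE 0.57, adjusted p = 0.977), and standard errors of this size leave room for a change beyond 1 on the log2 scale.

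Spread between fish was smaller on day 6 than on day 1 in both classes. The median SD of log2 levels over the raised contigs was 0.75 on day 1, 0.53 on day 6 and 0.64 among the PBS fish. Over the fitted lowered contigs it was 1.02 on day 1, 0.78 on day 6 and 0.57 in PBS. Among the 38 lowered contigs with a mean of at least 20 normalized counts on both days it was 0.58, 0.44 and 0.42. This difference in spread was not tested.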

How the data were processed

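Stranded mRNA libraries from the livers of 13 fish were used here, fewer fish per group than the methods of the study describe. The authors trimmed reads with Trimmomatic 0.36, assembled them with Trinity, removed contigs of low abundance with RSEM, and counted reads per contig with SAMtools idxstats. These counts were deposited unnormalized, and no use of strand is described, so overlapping transcripts of opposite strands cannot be told apart. Contigs of the same Trinity gene may share reads. The signal column, the authors' mean normalized count, was computed by them as counts over DESeq2 size factors. Deposited fold changes, standard errors, statistics and p-values of each day against PBS, made by the authors with DESeq2 1.28.0, were not used. A contig is in a table where its adjusted p against PBS was under 0.001, also with a log2 fold change within 2.

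Size factors were solved from these deposited means, which then came back with a relative error of at most 5.44e-15, and day 6 factors were multiplied by 1.10, the geometric mean ratio over the 4 PBS fish (range 1.09 to 1.11). Contigs with at least 10 reads over the 6 exposed fish were fitted with edgeR 4.0.16 (glmQLFit and glmQLFTest, two-sided, Benjamini-Hochberg adjusted over the 532 fitted), without a replicate block. The spread was estimated from these listed contigs alone. The p-values measure differences between these fish, which were separate animals. The SE is the log2 difference over the square root of F. Counts were simulated for the 532 fitted contigs, with 200 changed, and 513 contigs reached 10 reads. Among these, 60.6% of changes of log2 2 and 80.0% of log2 3 were recovered, and 1.41% of calls were false. The simulation had as many rises as falls and size factors known exactly, unlike the data, so these rates may not carry over. Levels on the log2 scale have 1 added. Where no read was counted in a group, 3 reads over the group were taken as the limit. Within the PBS, day 1 and day 6 groups, no 2 libraries agreed within sampling noise. Pairs across groups and the fish of day 9 were not checked.

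Named were, by rule, up to 5 contigs with the smallest p and no overlap in each direction of each class, contigs on opposite sides of PBS, the 2 most abundant of each class, and the 2 nearest to a difference of 0 among those with a mean of at least 100 on both days. Members, lists and rule were chosen with earlier results of these data known. Alternatives were DESeq2 1.42.0, edgeR's legacy quasi-likelihood test, other scalings (the study's clean-read totals, TMM, median of ratios, the lowest and highest bridging ratio), other read minimums, PBS fish in the fit, a replicate block, the study's thresholds, 1 contig per Trinity gene, and each fish left out. None of the 679 identifiers matched the table of gene names used.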

Additional observations from a re-analysis of the deposited data

Results flagged for a closer look

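Among 24 groups of 4 PBS fish examined for a fish far from the others, 2 stood out, and chance gives about 1 in 20. That rate does not apply to these 2. With no read in 3 fish, any read in the other fish is flagged. TRINITY_DN92637_c2_g3_i1 had 3.60 normalized counts (4 reads) in 1 PBS fish and no read in the other 3. TRINITY_DN91051_c3_g1_i1 had 0.899 normalized counts (1 read) in the same fish, PBS replicate 4, and no read in the other 3. Both values are far below those of the exposed fish and do not enter the test between days 1 and 6.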

How the results depend on the processing

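Called contigs numbered 34 (raised, higher on day 6), 29 (raised, lower), 1 (lowered, higher) and 104 (lowered, lower). With clean reads as the scaling, raised contigs called lower numbered 18 and lowered contigs called lower 62. A minimum of 60 reads left 60 lowered contigs called lower. With PBS fish in the fit, 5 lowered contigs were higher. Under the thresholds of the study the 4 counts were 15, 10, 0 and 23. Leaving out 1 fish at a time gave 21 to 58, 18 to 39, 0 to 2 and 63 to 127, with 58, 39 and 127 reached without replicate 3 of day 1. DESeq2 called 40 contigs higher and 114 lower and kept 147 of the 169 calls, and clean reads, TMM and the median of ratios kept 116, 131 and 139. Replicate numbers belong to different fish, and same-numbered fish did not deviate together (correlations -0.10, -0.08 and 0.07). With the replicate block 38 contigs were higher and 109 lower, and 78 lowered contigs were called lower. Of the 22 named contigs, 18 kept direction and side of the threshold under all 18 alternatives fitted to them. These include TRINITY_DN86634_c3_g1_i5 and TRINITY_DN87677_c5_g6_i3, which reached the minimum of 10 reads through day 1 alone. They also include TRINITY_DN82588_c5_g5_i5, whose sign was fixed by its class. The exceptions were TRINITY_DN87696_c3_g7_i1, between 2.03 and 2.86 with 1 fish left out, and 3 contigs that were never called. TRINITY_DN90980_c8_g1_i2 turned to 0.46 with clean reads, 0.40 with TMM, 0.30 with the median of ratios and 0.067 with the replicate block, and lay between -0.36 and 0.52 with 1 fish left out. With 1 fish left out, TRINITY_DN106770_c2_g1_i2 lay between -0.36 and 0.38 (up to 0.47 with TMM) and TRINITY_DN78778_c0_g1_i16 between -0.22 and 1.79. Clean reads, TMM and the median of ratios raised all 532 differences, each by unequal amounts, the study thresholds are stricter by construction, and causes of the other changes were not tested. Contigs under 10 reads could not be followed at this depth.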

Other observations

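The day 9 table held 67.3% of the 679 contigs, 58.2% of the raised and 71.0% of the lowered ones. Of the 34 raised contigs that were higher on day 6 than on day 1, all 34 were also in the day 9 table, after a further injection, with a median level of 689 normalized counts there against 1125 on day 6. TRINITY_DN114726_c8_g1_i2 had 8037, 12942 and 16148 in the fish of day 9, above or within its range of day 6, while TRINITY_DN105122_c5_g1_i18 had 6363, 3019 and 2534, below all fish of day 6. TRINITY_DN92637_c2_g3_i1 (961, 1887 and 20.7), TRINITY_DN93812_c1_g1_i1 (530, 711 and 1004) and TRINITY_DN87265_c4_g1_i1 (1536, 1837 and 1327) also lay below all fish of day 6. TRINITY_DN111751_c3_g4_i1, with 2404, 6294 and 2126, overlapped with day 6. Of the 29 raised contigs that were lower on day 6, 8 were in the day 9 table (27.6%), with a median of 88.5 on day 6 and 55.0 on day 9. Of the 133 raised contigs not called, 72 were in it (54.1%), with medians of 172 on day 6 and 101 on day 9. A lower median on day 9 than on day 6 was thus not particular to the 34. Of the 104 lowered contigs that were lower still on day 6, 75 were in it (72.1%, near the 73.5% of the fitted lowered contigs that were not called), with medians of 23.3 on day 1, 1.40 on day 6 and 6.15 on day 9. TRINITY_DN87696_c3_g7_i1, the lowered contig higher on day 6, had 84.5, 101 and 299 on day 9, and TRINITY_DN82588_c5_g5_i5 had 9.82, 8.26 and 13.0. Levels of the contigs without a place in the day 9 table were not analysed here, differences from day 9 were not tested, and the day 9 table was brought to the common scale through the PBS fish alone.

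Contigs of the same Trinity gene mostly moved the same way. Of 24 genes with several fitted contigs (49 contigs), 22 had differences of 1 sign, none had contigs called in both directions by edgeR, and none had contigs in both classes. At least 1 contig was called in 11 of these genes and at least 2 in 6. Over all 532 contigs fitted, 31.8% were called and 352 had a difference below 0. Among the 335 fitted lowered contigs, 262 lay below 0. Whether contigs of 1 gene moved alike more often than other contigs was not tested. Contigs of 1 gene may share reads and are not independent. In TRINITY_DN80414_c8_g1, picked after its values were seen, contig i5 had 504, 226 and 543 normalized counts on day 1 and 3631, 2701 and 6881 on day 6 (log2 difference 3.38, SE 0.66, adjusted p = 0.000268 in edgeR), without overlap. Contig i6 of the same gene had 376, 226 and 1215 on day 1 and 918, 1454 and 1832 on day 6, which overlapped, and its difference of 1.21 did not pass the test (SE 0.62, adjusted p = 0.129).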
